A study of Mus musculus with 10 samples.

Results

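Axonemal and intraflagellar transport genes build and move the motile cilia that line the oviduct. The set described here holds every gene whose symbol in the platform annotation starts with Cfap, Dnah, Dnaaf, Drc, Tekt, Rsph or Ift followed by a digit. It came to 80 of the 19938 named genes on the array: 31 Cfap genes, 15 Dnah, 14 Ift, 7 Dnaaf, 5 Rsph, 5 Tekt and 3 Drc. Members were taken by name, although the name rule was set with earlier results of these data known, and where several probe sets read a gene, the brightest on average was taken. All 14 multiciliated cell markers used to check the label were on the array, among them Foxj1, the master transcription factor of motile cilia, with a log2 signal of 7.16 ± 0.109 in controls (SD, n = 5). Signal over background could not be measured, so the check shows no more than that.

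The comparison was between 2 genotypes of prepubertal mouse. In PRKO animals a lacZ cassette knocked into both alleles of Pgr, the progesterone receptor gene, stops transcription of both receptor isoforms; PR+/- animals carry the insertion on 1 allele and served as controls. No wild-type animals were analysed here. All mice, aged 21 to 23 days, were injected with 5 IU of equine chorionic gonadotropin, which drives follicle growth, and 44 to 47 h later with 5 IU of human chorionic gonadotropin (hCG), the ovulatory trigger. At 8 h after hCG whole oviducts were removed, and 3 animals contributed to each pool, giving 5 arrays and 15 animals per genotype. The insertion is carried by every tissue, ovary included, and all arrays date from 1 time, so a difference present before hCG cannot be told apart from one that arose after it.

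The axoneme is a ring of doublet microtubules around a central pair. Outer and inner arm dyneins, motors built on Dnah heavy chains, slide neighbouring doublets against each other; the nexin-dynein regulatory complex links the doublets, radial spokes carry signals from the central pair, and tektins and other inner proteins line the doublet wall. Dynein arms are put together in the cytoplasm with the help of Dnaaf factors, and intraflagellar transport trains carry axonemal parts along the cilium. In the oviduct multiciliated cells beat towards the uterus and move the cumulus-oocyte mass, and their genes are known to be switched on together by Foxj1 and RFX transcription factors.

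Few of these genes differed between PRKO and PR+/- oviducts by more than the spread between pools. Of the 80 members, 1 rose in PRKO oviducts (Cfap43, a 1.47-fold rise), 0 fell and 79 did not pass the test, limma's moderated linear model with a Benjamini-Hochberg adjusted p under 0.05 over all 19938 genes. Among all genes 4.96% passed it, 1.09% upward and 3.87% downward. At an unadjusted p under 0.05, 6 members were higher (10.1% of all genes were) and 3 lower (11.1% of all genes); together they made 11.25% of members, against 21.1% of all genes. Values of the 2 genotypes did not overlap for 2 members, both higher in PRKO, or 2.5% of members. Among all genes 7.2% did not overlap, 2.15% higher and 5.06% lower. The median log2 difference of the members, PRKO minus PR+/-, was 0.04, beside 0.03 for all genes. The count of members called was 2 without PRKO replicate 1 or without PRKO replicate 3, when Dnah14 joined Cfap43.

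The differences were small. The members' log2 differences ran from -0.31 to 0.55, and 73 of 80 (91.25%) lay within 0.2 of 0, compared with 75.8% of all genes. The median member's 95% interval reached 0.20 to either side of the estimate. For 78 of the 80 the whole interval lay inside a 1.5-fold change in either direction (0.58 on the log2 scale), which was so for 92.5% of all genes; the other 2 were Cfap43, with an interval of 0.36 to 0.74, and Dnah14, with 0.22 to 0.87. The interval of 71 members contained 0. Of the 80, 5 were among the dimmest 30% of named genes, where a signal near background may understate a difference. Since an array of whole tissue sums all cells, fewer multiciliated cells and less transcript per multiciliated cell cannot be told apart in any of these values.

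**Figure D1:**
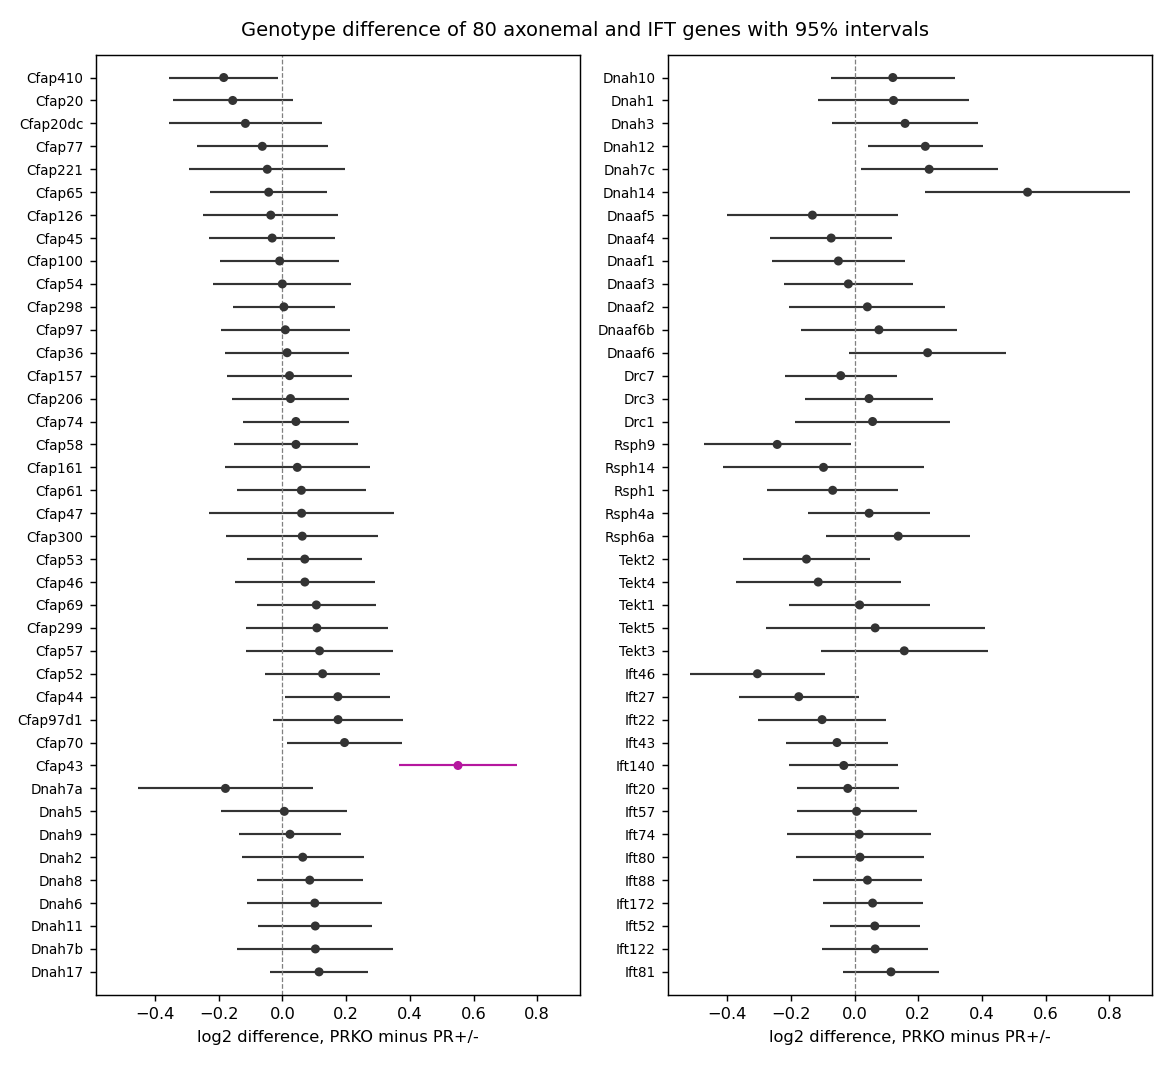
Log2 difference, PRKO minus PR+/-, of each of the 80 members (points) with its 95% interval (lines), grouped by family and ordered by difference within it; n = 5 arrays per genotype. Cfap43, in magenta, is the 1 member called, and the intervals of 71 members cross the dashed line at 0.

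Cfap43 encodes a ciliary protein that, with its partner Cfap44, forms the tether holding an inner arm dynein head to the doublet. The 5 PR+/- arrays read it at log2 signals of 9.64, 9.58, 9.55, 9.71 and 9.77, and the 5 PRKO arrays at 10.05, 10.11, 10.12, 10.44 and 10.30. Every PRKO array lay above every control array, and the highest 2 were PRKO replicates 4 and 5. Means were 9.65 ± 0.091 and 10.20 ± 0.162 (SD, n = 5 each), a log2 difference of 0.55 ± 0.087 (SE; limma adjusted p = 0.00162). The call was lost when each array's interquartile range entered the model as a covariate (log2 difference 0.50, limma adjusted p = 0.0556). That range was below every control on all PRKO arrays except replicate 2, so the covariate partly coincides with genotype.

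Because the array reads Cfap43 through 5 probe sets, its difference could be compared between probe sets. The other 4 probe sets had log2 differences of 0.35, 0.49, 0.70 and 0.59, all in the same direction as the 0.55 of probe set 10468413, which stands for the gene. When every single-gene row was tested, 10468413, 10468417 and 10468419 passed (limma adjusted p = 0.00179, 0.00171 and 0.00353), while 10468399 and 10468415 did not (0.154 and 0.128). On both of the latter the genotypes overlapped, and PRKO replicate 4 gave the highest value, 9.06 on 10468399 and 8.80 on 10468415. A further row, shared with the neighbouring gene Itprip and therefore not used, had a log2 difference of 0.05.

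**Figure D2:**
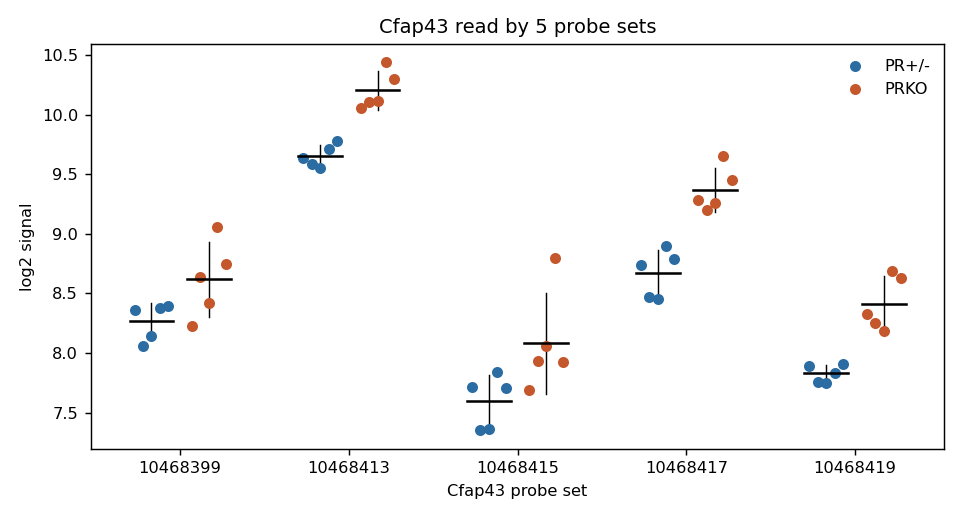
Log2 signal of the 5 probe sets that read Cfap43 alone, with 1 point per array, a bar at the mean of each genotype and a line of 1 SD to either side (n = 5). PRKO arrays lie above all control arrays on 10468413, 10468417 and 10468419, and overlap with them on 10468399 and 10468415.

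Its partner Cfap44 did not pass. PR+/- arrays gave 10.12, 10.07, 9.92, 9.82 and 9.89, and PRKO arrays 10.18, 10.15, 10.16, 10.17 and 10.03. Of the 5 PRKO values 4 topped the control range and PRKO replicate 5 fell inside it, for a log2 difference of 0.17 ± 0.077 (SE; limma adjusted p = 0.214, but 0.0487 after quantile normalization). Cfap57 and Cfap100, also linked to inner arm dyneins, had log2 differences of 0.12 and -0.0087. The difference between the partners was not tested.

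Promoter windows from RefSeq (GRCm38.p6, 250 bases before to 50 after the start) were found for 67 of the 80 members, and are given because these genes are known as shared targets of RFX and forkhead factors. The RFX half-site GTTGCC, searched on both strands, stood in the windows of 28 of 67 members (41.8%), against 14.1% of all 27025 genes with a window. It was found in 5 of 6 Dnaaf windows, 10 of 25 Cfap, 5 of 11 Ift, 3 of 5 Tekt, 4 of 14 Dnah, 1 of 3 Drc and 0 of 3 Rsph. The longer RFX X-box, GTTNCC and GNAAC with 3 bases between them, which can overlap the half-site and on the printed strand may appear as its reverse complement, occurred in 9 members (13.4%) and in 0.936% of all genes. The median GC content of the windows was 56.2% for members and 52.7% for all windows. The X-box sites of 6 of these 9 members and the forkhead core of Cfap43 follow as examples. The likeness of the X-box matches was set by the pattern searched, and Dnaaf6 and Dnaaf6b also share flanking bases. Capitals mark the match, and each is written 5′ to 3′ on the gene's strand.
Cfap44 (chr16:44394764-44394793, plus strand): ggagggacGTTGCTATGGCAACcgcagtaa
Cfap45 (chr1:172521103-172521132, plus strand): gttcttggGTTGCTATGGTAACgcgtcagc
Dnaaf2 (chr12:69198425-69198454, minus strand): tcccaggcGTTACTATGGCAACaaagcacg
Dnaaf6 (chr1:31222772-31222801, plus strand): acaaagttGTTACCCAGGCAACagagcaac
Dnaaf6b (chrX:140062864-140062893, plus strand): acaaagttGTTACCCGGGCAACagagagac
Cfap298 (chr16:90935016-90935045, minus strand): gggttttgGTTGCCCGGGCAACagctactt
Cfap43 (chr19:47837399-47837427, minus strand): aggatacaggtGTAAACAgtggcatcttc

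The forkhead core TGTTTAC, the letters capitalised for Cfap43 in reverse complement, stood in 4 of 67 member windows (5.97%) and in 4.05% of all genes. Besides Cfap43 the holders were Cfap20, Dnah17 and Tekt3, with log2 differences of -0.16, 0.11 and 0.16, none past the test. A progesterone response element, searched as GNACA and TGTNC with 3 bases between them, matched in 1 member, Cfap298, and in 0.537% of all genes. Cfap298, a factor needed for dynein arm assembly, had a log2 difference of 0.0046 ± 0.075 (SE; limma adjusted p = 0.976). None of the 9 members with an X-box passed the limma test, which 4.96% of all genes passed. Where the X-box is printed, log2 differences were 0.17 (Cfap44), -0.03 (Cfap45), 0.04 (Dnaaf2), 0.23 (Dnaaf6), 0.08 (Dnaaf6b) and 0.0046 (Cfap298). Those not printed had -0.12 (Cfap20dc), 0.06 (Cfap61) and -0.11 (Tekt4). A match describes letters in the window and not a bound site.

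Dynein heavy chains were the family with the most one-sided differences. Of 15 Dnah genes, 14 had a positive log2 difference, with a median of 0.10, where 56.1% of all genes were positive. Yet 0 of 15 passed the limma test, which 4.96% of all genes passed. At an unadjusted p under 0.05, 3 of them (20%) were higher, against 10.1% of all genes. The family's array means were 7.43, 7.38, 7.23, 7.20 and 7.23 in PR+/- and 7.38, 7.41, 7.41, 7.55 and 7.32 in PRKO. PRKO replicate 4 was the highest and the ranges overlapped. The median stayed positive under all 21 alternative settings, with 12 of 15 positive when arrays were centred on their medians and 15 of 15 under the interquartile range covariate.

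Among outer arm chains, Dnah5, the core heavy chain of the arm, gave log2 signals of 9.87, 9.79, 9.49, 9.42 and 9.56 in PR+/- and 9.71, 9.53, 9.64, 9.67 and 9.60 in PRKO. Here the PRKO arrays lay within the control range, and the log2 difference was 0.0059 ± 0.092 (SE; its sign changed under 9 of 21 alternative settings). Dnah9, of the distal part of the cilium, had a difference of 0.02 with a 95% interval of -0.14 to 0.18, and Dnah11, of the proximal part, 0.10 with an interval of -0.08 to 0.28. Dnah8 and Dnah17, known from sperm, had differences of 0.09 and 0.11. Their probe sets were dim, with control means of 3.75 and 4.31.

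Inner arm chains included the members with the lowest p-values of the family after Dnah14. Dnah12, a single-headed inner arm chain, read 9.77, 9.90, 9.62, 9.57 and 9.63 in PR+/- and 9.91, 9.76, 9.89, 10.02 and 10.03 in PRKO. PRKO replicates 1, 4 and 5 lay above every control array and replicates 2 and 3 inside the control range, for a difference of 0.22 ± 0.084 (SE; limma adjusted p = 0.148, and 0.0487 after quantile normalization). The other Dnah12 probe set, 10413316, had a difference of 0.09 (limma adjusted p = 0.643). Dnah7c, one of 3 near-identical copies of the mouse Dnah7 gene, had a difference of 0.23 ± 0.101 (SE; limma adjusted p = 0.20), against 0.10 for Dnah7b and -0.18 for Dnah7a. Probes cannot be assumed to separate these copies: the 2 rows that the annotation gives to all 3 had differences of 0.10 and 0.14. Of the remaining inner arm genes, Dnah3 (0.16) was read by 33 probe sets, 19 with a positive and 14 with a negative difference, and Dnah10 (0.12) by 5, of which 3 were positive.

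Dnah14, a heavy chain without a firmly assigned arm, missed the threshold by the least. The PR+/- arrays gave 4.65, 4.65, 4.23, 4.64 and 4.50, and the PRKO arrays 4.80, 5.14, 4.66, 5.60 and 5.18. All PRKO values lay above all control values, although PRKO replicate 3 exceeded the highest control by only about the last digit given. Means were 4.53 ± 0.179 and 5.08 ± 0.368 (SD, n = 5 each), a difference of 0.54 ± 0.15 (SE; limma adjusted p = 0.0546). It passed in 6 of 21 alternative settings, with adjusted p from 0.0209 to 0.174 over all of them. Whether signals this low lie near background was not measured.

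**Figure D3:**
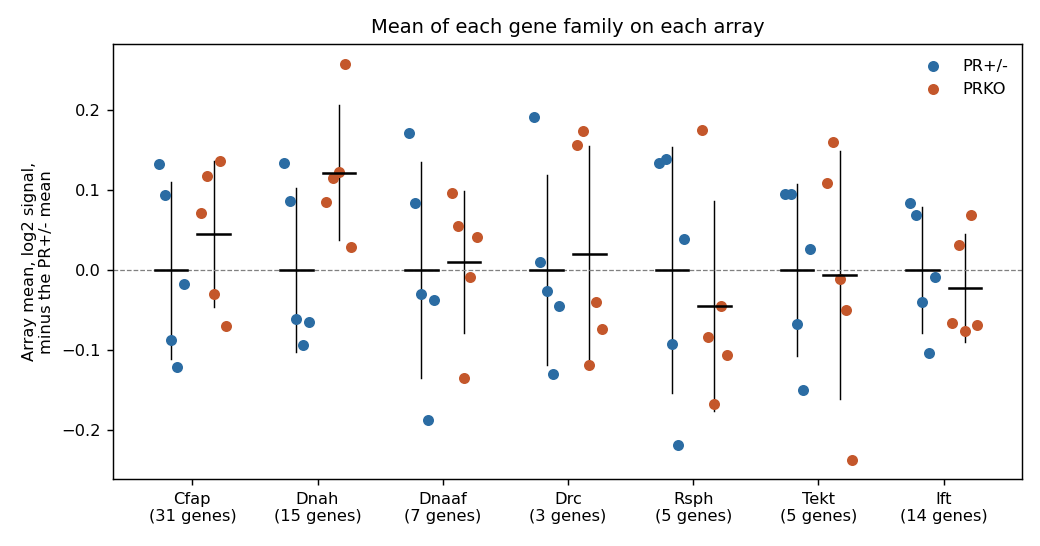
Mean log2 signal of the members of each family on each array, minus the mean of the 5 PR+/- arrays; points are arrays, bars are genotype means and lines 1 SD to either side (n = 5). Genotype ranges overlap in all 7 families, and the PRKO mean of the Dnah genes lies 0.12 above that of PR+/-.

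Factors that preassemble dynein arms had medians near 0. The 7 Dnaaf genes had a median difference of -0.02, 3 positive and 4 negative, and the sign of that median was not stable. It was 0.032 after quantile normalization, 0.031 after cyclic loess and 0.035 with the interquartile range covariate, and lay between -0.055 and 0.043 with 1 array left out. Dnaaf5, a scaffold for arm assembly, gave 7.42, 7.57, 7.31, 7.14 and 7.26 in PR+/- and 7.44, 7.51, 7.20, 7.04 and 6.85 in PRKO, for a difference of -0.13 (limma adjusted p = 0.566; 0.14 with the covariate). Dnaaf6, a co-chaperone, had the largest positive difference of the family, 0.23 (limma adjusted p = 0.270). Its probe set was among the dimmest 30% of named genes, so the value may lie near background. Cfap300, which acts with these factors, had a difference of 0.06.

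Radial spoke genes had a median difference of -0.07 over 5 Rsph genes, which was 0.02 with the interquartile range as a covariate. Rsph9, a subunit of the spoke head, read 7.67, 7.76, 7.49, 7.36 and 7.52 in PR+/- and 7.65, 7.34, 7.06, 7.28 and 7.26 in PRKO. Of the PRKO arrays 4 were below every control array, and replicate 1 was among the higher controls, for a difference of -0.24 ± 0.107 (SE; limma adjusted p = 0.214). Rsph4a and Rsph1, further spoke head subunits, had differences of 0.05 and -0.07, neither past the test (limma adjusted p = 0.796 and 0.709). Rsph14 (-0.10) was among the members with the widest spread, with an SD of 0.333 over PRKO arrays, and Rsph6a, known from sperm, had a difference of 0.14 at a dim signal. The rows shared by Rsph3a and Rsph3b, left out for naming both, had differences of -0.18 and -0.12.

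The nexin-dynein regulatory complex was represented by 3 genes. Drc1, needed for assembly of the complex, had a difference of 0.06 ± 0.113, Drc3 of 0.05 ± 0.094 and Drc7 of -0.04 ± 0.082 (SE). Drc1 lay above all controls on PRKO replicates 1 and 2 alone, at 5.77 and 5.91, and the other 3 PRKO arrays read 5.39, 5.31 and 5.40 against a control range of 5.38 to 5.65.

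Proteins of the doublet lumen and of the central apparatus were spread about 0. The 11 inner proteins of the doublet, tektins among them, had 6 positive and 5 negative differences, between -0.16 for Cfap20 and 0.16 for Tekt3. Tekt2 had a difference of -0.15 (limma adjusted p = 0.371) and Tekt1 of 0.02 (adjusted p = 0.942). Tekt5, best known from sperm, was dim and the most variable of the family, from 3.27 on PRKO replicate 4 to 4.25 on PRKO replicate 3. The median of the 5 Tekt genes, 0.02, turned to -0.03 under quantile normalization and cyclic loess and to -0.02 when arrays were centred on their medians, and was 0.17 under the covariate. All 7 central apparatus genes (Cfap46, Cfap47, Cfap54, Cfap65, Cfap69, Cfap74 and Cfap221) lay between -0.05 and 0.11. Cfap47 alone among them had a wide PRKO spread, from 6.59 on replicate 5 to 7.54 on replicate 4.

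Other Cfap genes with an unadjusted p under 0.05 were Cfap70 and Cfap410. Cfap70, associated with the outer arm, read 7.82, 7.76, 7.53, 7.42 and 7.59 in PR+/- and 7.90, 7.79, 7.83, 7.85 and 7.73 in PRKO. Its difference was 0.20 ± 0.085 (SE; limma adjusted p = 0.206). Cfap410, a protein of the ciliary base, had the largest negative difference of the Cfap genes, -0.18 ± 0.080 (SE; limma adjusted p = 0.207), with PRKO values of 5.68 to 5.92 and control values of 5.87 to 6.16. The 31 Cfap genes together had 21 positive and 10 negative differences and a median of 0.04. This split depended on the scaling: 29 were positive and 2 negative with the interquartile range as a covariate (median 0.16), 25 and 6 after quantile normalization or cyclic loess (0.077 and 0.071), and 16 and 15 with arrays centred on their medians (0.011). Leaving out PR+/- replicate 4 also gave 16 and 15 (median 0.0021).

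None of the 14 intraflagellar transport genes passed the limma test, which 4.96% of all genes passed. At an unadjusted p under 0.05, 1 of them, Ift46, was lower, against 11.1% of all genes. Of the 14, 8 had positive and 6 negative differences, with a median of 0.01. The split was 10 and 4 after quantile normalization or cyclic loess (medians 0.055 and 0.059), 11 and 3 with the interquartile range covariate (0.071), and 5 and 9 with centred arrays (-0.021). It was also 5 and 9 without PRKO replicate 4 (-0.047). Ift46, a subunit of the anterograde complex IFT-B, had the largest negative difference of all members. PR+/- arrays read 8.78, 8.84, 8.42, 8.45 and 8.65, and PRKO arrays 8.33, 8.44, 8.15, 8.47 and 8.25. PRKO replicates 1, 3 and 5 lay below every control array and replicates 2 and 4 just inside the control range. The difference was -0.31 ± 0.099 (SE; limma adjusted p = 0.0952, and 0.0482 with a variance trend and robust moderation). With the interquartile range as a covariate it was -0.15 (limma adjusted p = 0.664).

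The other subunits of IFT-B showed no such value. Ift27, a small GTPase-like subunit, had a difference of -0.18 (limma adjusted p = 0.271). Ift88, a core subunit required for cilium formation, gave 8.47, 8.59, 8.40, 8.36 and 8.49 in PR+/- and 8.34, 8.55, 8.65, 8.55 and 8.41 in PRKO, a difference of 0.04 with a 95% interval of -0.13 to 0.21. Ift81, which binds tubulin together with Ift74, had the largest positive difference of the family, 0.11 (limma adjusted p = 0.365). Ift172 stood at 0.06. In the retrograde complex IFT-A, Ift122, Ift140 and Ift43 had differences of 0.06, -0.03 and -0.06.

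Arrays of the same genotype differed from each other in many members at once. Averaged over all 80, the log2 signal was 7.37, 7.33, 7.18, 7.11 and 7.22 on PR+/- replicates 1 to 5 and 7.31, 7.33, 7.21, 7.35 and 7.19 on PRKO replicates 1 to 5. The control mean was 7.24 ± 0.106 and the PRKO mean 7.28 ± 0.072 (SD, n = 5 each), and the ranges overlapped. Members above their own genotype's mean numbered 75 of 80 on PR+/- replicate 1 and 70 on replicate 2, but 15, 10 and 30 on replicates 3, 4 and 5. On the PRKO arrays they numbered 47, 58, 26, 58 and 20, while among all genes 41.3% to 55.9% lay above that mean on any array. For 27 members PR+/- replicate 4 gave the lowest of the 10 values, where 8.58% of all genes were lowest on it, and for 26 members PRKO replicate 4 gave the highest, against 12.3% of all genes. On some arrays the shift covered Ift as well as axonemal genes: 12 of 14 Ift members lay above the control mean on PR+/- replicate 1 and 1 of 14 on replicate 4. On PRKO replicate 1 the sets parted, with 4 of 14 Ift and 43 of 66 axonemal members above the PRKO mean.

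**Figure D4:**
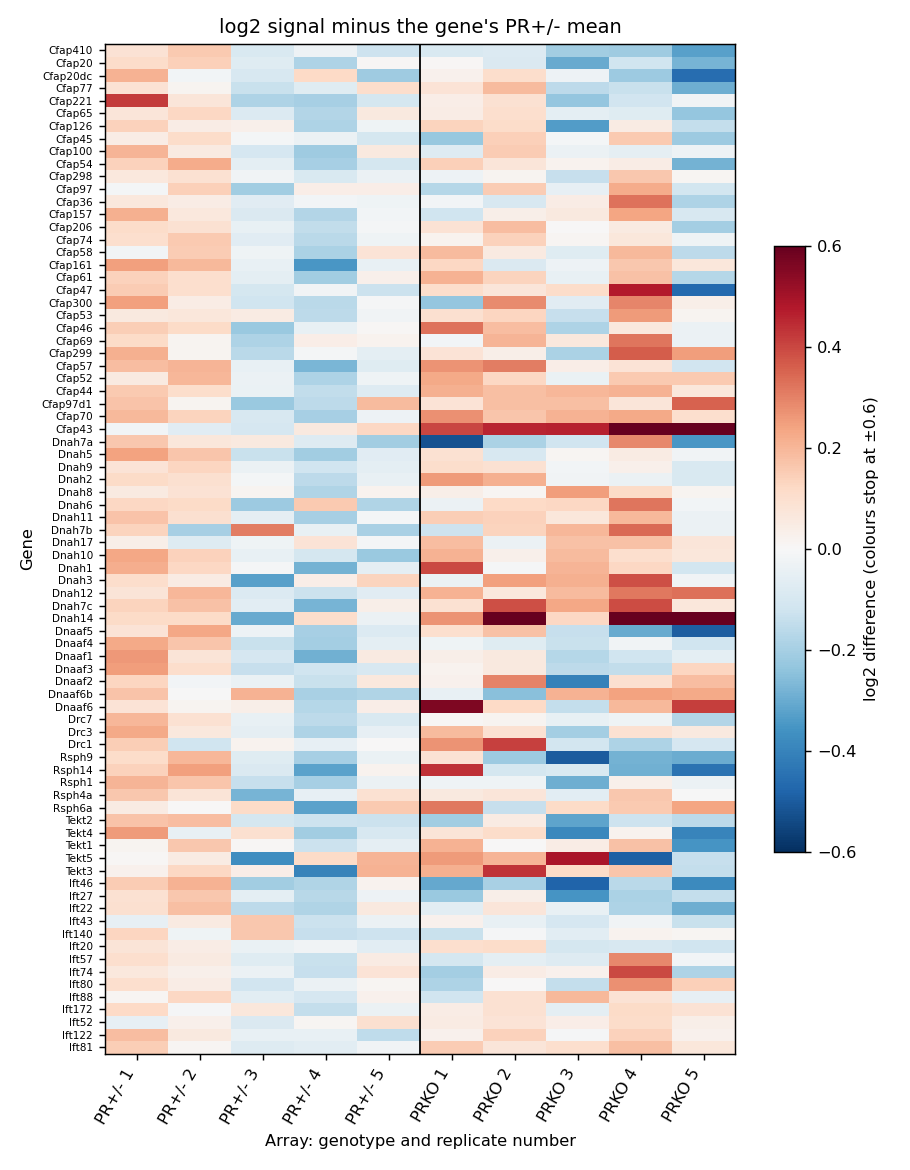
Log2 signal of each of the 80 members (rows, in the order of the interval plot) on each of the 10 arrays (columns) minus the gene's PR+/- mean; red is higher and blue lower, and colours stop at 0.6 in either direction. The columns of PR+/- replicates 1 and 2 are mostly red and that of PR+/- replicate 4 mostly blue, whereas the row of Cfap43 is red on all 5 PRKO arrays.

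Other measures differed between these arrays too. The interquartile range of array values was 3.48, 3.47, 3.43, 3.40 and 3.37 on PR+/- replicates 1 to 5 and 3.30, 3.42, 3.27, 3.36 and 3.13 on PRKO replicates 1 to 5. It was widest on PR+/- replicates 1 and 2, where members were high, and narrowest on PRKO replicate 5, where they were low. Other arrays went the other way: it was wider on PR+/- replicates 3 and 4, where members were low, than on PRKO replicate 4, where they were high. On PRKO replicate 1, 58.75% of members lay above the PRKO mean, near the 55.9% of all genes. The mean of 7 ovarian steroidogenic and granulosa cell markers was 5.19 on PR+/- replicate 4 and 5.36 on PRKO replicate 3, against 3.85 to 4.21 elsewhere. These 2 arrays were the lowest of the 10 for 27 and 13 members respectively, against 8.58% and 6.78% of all genes. However, PR+/- replicate 3, with an ovarian marker mean of 3.87, was lowest for 11 members, against 6.74% of all genes. PRKO replicate 5, with a mean of 4.15, was lowest for 16 of the 80 members, about its share of all genes (20.2%). Without the 2 arrays of high ovarian signal the median difference of the members was 0.0070, and the part of either measure in the array shifts was not tested. Adding the interquartile range as covariate, that median was 0.13, beside 0.02 for all genes.

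The spread over PRKO pools was close to that over controls in these genes. The SD was larger in PRKO for 39 of 80 members (48.75%), compared with 74.7% of all genes. The median SD of a member was 0.140 in PR+/- and 0.146 in PRKO, where it was 0.113 and 0.167 over all genes.

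Further cilium genes outside the name rule were counted from lists. For comparison, 4.96% of all genes passed the limma test. At an unadjusted p under 0.05, 10.1% of all genes were higher and 11.1% lower. Of 41 measured axonemal genes with other names, such as Hydin, Ccdc39 and Spag17, 0 passed the test in limma, 4 were higher and 2 lower at an unadjusted p under 0.05, and their median difference was 0.03. Of 28 other transport, transport motor and BBSome genes, 0 passed, 1 was higher and 1 lower at that p, and the median was 0.0031. Spef2, a central apparatus protein, had values that did not overlap between genotypes (9.24 to 9.36 in PR+/-, 9.41 to 9.78 in PRKO) and a difference of 0.25 ± 0.082 (SE; limma adjusted p = 0.104). These values come from the brightest of its 22 probe sets. Over the alternative settings the Spef2 difference ran from 0.11 to 0.36, with limma adjusted p from 0.0228 to 0.521. Wdr34, an intermediate chain of the retrograde transport motor, had a difference of -0.33 ± 0.122 (SE; limma adjusted p = 0.134). None of 14 multiciliated cell markers passed, with 1 higher and 1 lower at an unadjusted p under 0.05, and Foxj1 differed by -0.11 (limma adjusted p = 0.514; 0.013 with that covariate).

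The smooth muscle and secretory epithelial marker lists differed by more in the same samples. All 8 smooth muscle markers fell, with an array mean of 9.23 ± 0.061 over controls and of 8.37 ± 0.106 over PRKO pools (SD, n = 5 each), and 4 of 7 secretory epithelial markers fell, namely Cldn3, Gpx3, Krt19 and Msln. The secretory list was mixed: Muc1 had a log2 difference of 0.28 with no overlap between genotypes (limma adjusted p = 0.0834), Pax8 of -0.0092 and Wfdc2 of -0.35 (adjusted p = 0.963 and 0.301). Ovgp1, also on this list of 8, was not among the genes measured. Whether the genes that fell are limited to secretory cells was not tested. For the smooth muscle and secretory lists the array means of PRKO lay wholly below those of controls, whereas the means of the members and of the multiciliated markers overlapped. Of 6 endothelial markers Emcn and Pecam1 fell, and 0 of 6 leukocyte and 0 of 7 ovarian markers passed. Array means of these lists overlapped between genotypes. Pgr itself, the disrupted gene, was lower on every PRKO array (log2 difference -1.06, limma adjusted p = 1.00e-06). Over all genes 771 fell and 217 rose; these 988 calls were 581 without PR+/- replicate 1 and 598 without PR+/- replicate 2.

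**Figure D5:**
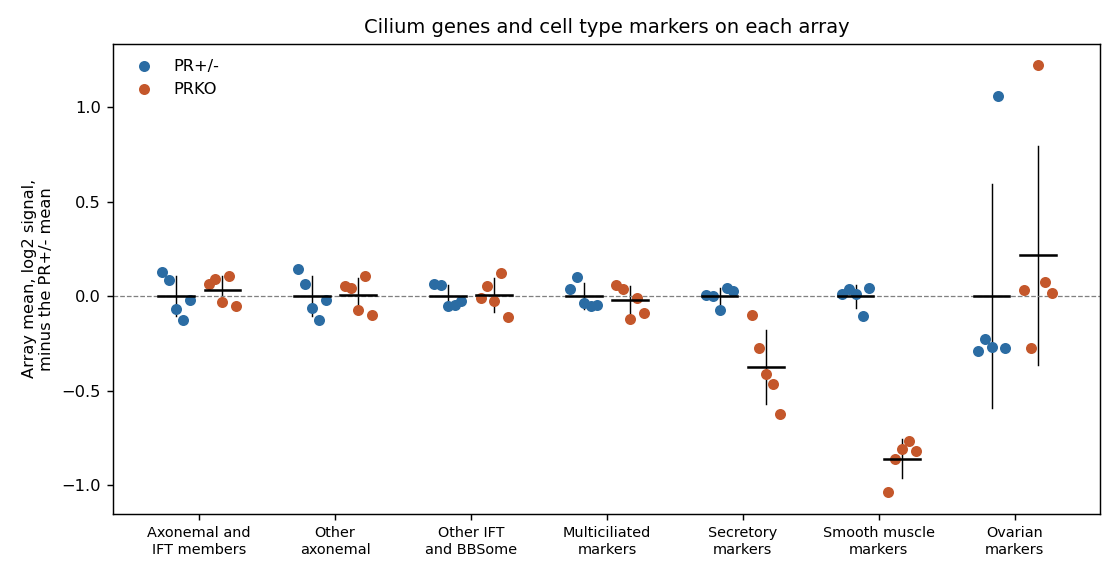
Mean log2 signal of each gene list on each array, minus the mean of the 5 PR+/- arrays; points are arrays, bars are genotype means and lines 1 SD to either side (n = 5). The 4 cilium lists overlap between genotypes, secretory and smooth muscle markers lie lower on all 5 PRKO arrays, and the ovarian markers are high on 1 array of each genotype.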

How the data were processed

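RNA of pooled whole oviducts was labelled through the Affymetrix whole-transcript kit, per the labels' protocols. The authors deposited a table of log2 values, 1 per probe set and array, made with Partek software, as the submitters' processing notes name it; they state no version, background correction or normalization. The log2 scale was inferred from the values (1.09 to 13.6), and folds hold only if it is right. Array medians lay between 5.20 and 5.28, and no further normalization was applied, although interquartile ranges ran from 3.13 to 3.48. Of 35557 rows, 21789 carried 1 gene symbol, 1621 several and 12147 none in the platform annotation; the last kinds were not used, which left out 7 rows naming a member with another gene. No member's symbol differed from RefSeq's. No background measure was at hand, so dim probe sets were kept.

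Genotypes were compared with limma 3.58.1 (R 4.3.3: lmFit, eBayes, 10 arrays, no covariates), adjusted by Benjamini-Hochberg over 19938 genes and called under 0.05. P-values measure the spread between pools. Means per list and array carry no test. The members and lists were chosen with earlier results of these data known. Named members were each called one, the largest positive and negative difference per family, those without overlap, the 5 lowest p and the 5 widest within-genotype SDs; Cfap44, Cfap70, Dnah5, Dnah9, Dnah11, Ift27, Ift88, Ift172, Ift140, Rsph1, Rsph4a, Tekt1, Spef2, Wdr34, Foxj1 and other genes given as examples were chosen after their values were seen. The procedure was also run on simulated data. There each gene was drawn independently, without the shifts between arrays that the members share here. Alternatives were other normalizations, a covariate, filters, variance models, a replicate block and arrays left out.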

Additional observations from a re-analysis of the deposited data

Results flagged for a closer look

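In 110 sets of 5 arrays (the named genes and the list means, per genotype), 6 had an end value whose gap to the next, divided by the range, passed Dixon's 95% limit of 0.71; chance passes about 1 in 20. Dnaaf6 was lowest on PR+/- replicate 4, at 2.03, with the next array at 2.22. Cfap44 was lowest within PRKO on replicate 5, at 10.03, with the next at 10.15. Rsph1 was lowest within PRKO on replicate 3, at 8.15, with the next at 8.41. The smooth muscle marker mean was lowest within PR+/- on replicate 4, at 9.13, with the next at 9.25. The ovarian marker mean was highest within PR+/- on replicate 4, at 5.19 (next 3.91), and within PRKO on replicate 3, at 5.36 (next 4.21).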

How the results depend on the processing

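The count of members called, 1 as reported, was 3 after quantile normalization (Cfap43, Cfap44 and Dnah12) and 3 with a variance trend and robust moderation (Cfap43, Dnah14 and, downward, Ift46). It was 2 without the dimmest 30% of genes, 2 without PR+/- replicate 4 and PRKO replicate 3 together, 1 to 2 with 1 array left out, and 0 with the interquartile range as a covariate. All genes called, 988 as reported, were 322 with that covariate, 562 without the same 2 arrays, and 581 to 1165 with 1 array left out. The covariate partly coincides with genotype, so the changes it brings cannot be assigned to either. Other cilium genes called, 0 as reported, were 1 after quantile normalization, 1 after cyclic loess and 1 with the variance trend (Spef2 in each), and 0 with any 1 array left out. Replicate numbers shared by the genotypes did not meet the check for pairing, which asks every same-number pair to correlate above 0.1: replicate 3 was at -0.013 and the others between 0.10 and 0.16, and 5 of 10 arrays correlated best with their own number. With the replicate block 2 members (Cfap43 and Dnah14, the latter at a limma adjusted p of 0.0224) and 1 other cilium gene (Wdr34, limma adjusted p = 0.0261) were called. Of the 5 Cfap43 probe sets, 10468399 (0.35) and 10468415 (0.49) were not called. The members' median difference lay between 0.0070 and 0.13 over all 21 alternatives. Of 711 differences over 34 named genes, 660 kept direction and side of the threshold, and 37 changed sign, none of them from a called value. With the covariate the sign changed for Dnaaf5 (0.14), Dnah7a (0.021), Drc7 (0.091), Rsph14 (0.071), Ift140 (0.0082), Rsph1 (0.024) and Foxj1 (0.013). Quantile normalization gave Tekt5 -0.026 and Ift140 0.0059, and cyclic loess gave Tekt5 -0.032, Drc7 0.0027 and Ift140 0.0064. Centring on medians gave Dnah5 -0.025, Dnah9 -0.0075 and Tekt1 -0.015, and array weights gave Dnah5 -0.0099. Without PR+/- replicate 4 and PRKO replicate 3, Tekt5 was -0.013, Dnah5 -0.047, Ift88 -0.023 and Tekt1 -0.024, and without PRKO replicates 1 and 5 Dnah5 was -0.013. With 1 array left out, ranges crossed 0 for Drc1 (-0.032 to 0.12), Drc7 (-0.082 to 0.0065), Tekt5 (-0.041 to 0.20), Cfap47 (-0.044 to 0.19), Dnah5 (-0.046 to 0.067), Dnah9 (-0.0056 to 0.056), Ift140 (-0.069 to 0.0062), Rsph4a (-0.025 to 0.086) and Tekt1 (-0.032 to 0.11). The causes were not tested. Signal over background could not be measured, so the dimmest members (Dnaaf6, Cfap97d1, Dnah8, Tekt5 and Rsph6a) may understate differences.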
